A study of Mus musculus with 6 samples.

Results

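The BMP ligands Bmp2, Bmp4, Bmp6 and Bmp7 and the receptors Bmpr1a, Bmpr1b, Acvr1, Bmpr2, Acvr2a and Acvr2b were followed across the neurons, glia, fibroblasts and vessel cells of the autonomic ganglia of newborn mice. The members were taken by gene symbol, 10 of the 32285 genes in the feature tables, with no cutoff on measured values. Earlier results of these data were known when they were chosen. The study set out to learn how the pelvic ganglion, which innervates the bladder, rectum and sex organs, stands against sympathetic and parasympathetic ganglia. Its 6 droplet single-cell RNA libraries come from pups of both sexes at postnatal day 5. All carried a BAC transgene for Cre and RosatdT, a Cre-dependent tdTomato reporter at the Rosa locus. The stellate and lumbar ganglia (paravertebral) and the coeliac ganglion (prevertebral) are sympathetic, the sphenopalatine ganglion is parasympathetic, and the pelvic ganglion has 2 libraries, called here pelvic 1 and pelvic 2. Whole ganglia were dissociated without sorting, so non-neuronal cells were captured with the neurons, and no group was treated or mutant. How many pups went into a library is not given in the sources used here.

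BMPs are secreted dimers that bring together type 1 and type 2 receptors, which are serine/threonine kinases of the cell surface. The type 2 receptor phosphorylates the type 1 receptor, which phosphorylates Smad1, Smad5 and Smad9; these enter the nucleus with Smad4 and switch on genes such as the Id family. In the embryo, BMPs from the dorsal aorta are known for inducing sympathetic neurons from neural crest cells.

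The members differed in how they were spread over cell classes. Between pelvic and sympathetic neurons 4 of them were called, Bmpr1b, Bmp7, Bmp2 and Bmpr1a. Of all 15406 genes tested there, 10.3% were called higher in pelvic neurons and 8.09% lower. The call of Bmpr1a was lost in several alternative fits. The type 1 receptor Bmpr1b was present in the neurons of all 3 sympathetic ganglia and near 0 in pelvic and sphenopalatine neurons. The ligand Bmp7 had the opposite distribution, except that it was near 0 in pelvic noradrenergic neurons too. Like Bmpr1b, the ligand Bmp2 was higher in sympathetic than in pelvic neurons. Another type 1 receptor, Bmpr1a, was found in neurons, glia, fibroblasts and mural cells of every library and was scarce in endothelial cells. Bmp6 was a ligand of mural cells, endothelial cells and fibroblasts, Acvr1 was highest in fibroblasts, Bmpr2 in endothelial cells and neurons, and Acvr2a and Acvr2b in glia.

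The 6 files hold 30777 droplets and 479078441 UMIs (unique molecular identifiers, counts of captured RNA molecules), of which 1427 to 7219 droplets per library passed the study's limits on genes and mitochondrial RNA. Libraries were made in 2 rounds at different facilities and with different kit versions. Median UMIs per kept cell were 5814 to 10681 in the first round (stellate, sphenopalatine, pelvic 1) and 14159 to 18528.5 in the second (coeliac, lumbar, pelvic 2). Pairs of libraries shared up to 94 cell barcodes, at most 1.66% of the smaller library, and 7.18 to 16.7% of kept droplets were removed as likely doublets. Classes were rebuilt by clustering without the 10 members and 55 other BMP pathway genes, and named from marker genes. There were 240 to 2141 neurons, 545 to 2593 glia, 171 to 805 fibroblasts, 21 to 204 endothelial cells, 24 to 248 mural cells (pericytes and smooth muscle) and, in 5 libraries, 35 to 192 macrophages. The 7 neuronal markers came to at least 12540 CPM in neurons and at most 2668 CPM in glia, and the 7 glial markers to 8880 to 14050 CPM in glia and at most 894.6 CPM in any other class. The 6 fibroblast markers came to 34440 to 63340 CPM in fibroblasts but also to 1816 to 7279 CPM in glia, most of all in pelvic 2, where the glial markers themselves summed to 8880 CPM. CPM is the number of UMIs of a gene per 1000000 UMIs of that class in that library. Red blood cell RNA accompanied the endothelial class, where 3 erythroid genes summed to 1017 to 21570 CPM and were among the leading genes in coeliac and lumbar; its part in the endothelial results was not tested.

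Bmp2 (ENSMUSG00000027358, chr2:133552159-133562885, plus strand; all positions are GRCm38 with GENCODE M21 genes) encodes a ligand that, with Bmp4, forms a subgroup binding mainly Bmpr1a and Bmpr1b. In neurons its level was 2.60 CPM in stellate, 3.98 in coeliac and 5.37 in lumbar, and 0.415 in sphenopalatine, 0.141 in pelvic 1 and 0.343 in pelvic 2. The 3 sympathetic libraries thus lay above the other 3 with no overlap, and the share of all genes that do so was not counted. Macrophages held 3.30 CPM in stellate, 24.0 in sphenopalatine, 29.5 in pelvic 1, 15.0 in lumbar and 41.9 in pelvic 2. Mural cells ranged from 4.28 to 40.2 CPM and endothelial cells from 1.73 to 40.0 CPM, both highest in pelvic 2, while glia did not exceed 0.479 CPM. Macrophages, mural cells and endothelial cells did not differ from each other beyond the spread between libraries, endothelial cells were above fibroblasts (log2 difference 1.76, adjusted p = 0.024), and neurons were above glia (3.41 ± 0.89 SE, adjusted p = 0.0011).

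Bmp4 (ENSMUSG00000021835, chr14:46383520-46390669, minus strand) is the ligand best known for patterning ventral mesoderm and neural crest derivatives. Neurons held 4.20 CPM in stellate, 48.4 in coeliac, 14.8 in lumbar, 10.7 in pelvic 1 and 28.2 in pelvic 2. Sphenopalatine neurons stood apart with 4 UMIs among 62714926, or 0.0638 CPM. Endothelial cells carried it in every library, at 20.0 ± 9.10 CPM (SD, n = 6), from 9.21 in stellate to 33.0 in pelvic 2. Glia held 1.70 to 4.42 CPM. Among fibroblasts pelvic 2 was far above the rest, with 41.2 CPM against 1.11 to 6.49 CPM. No UMI of Bmp4 was found in the macrophages of any library, so that pooled endothelial cells were at least 24.5-fold higher than macrophages when the latter are set to a floor of 3 UMIs over the group. Neurons were above glia (log2 difference 2.20 ± 0.70, adjusted p = 0.0063), with sphenopalatine alone going the other way; neurons and endothelial cells did not differ beyond the spread between libraries (adjusted p = 0.51).

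Bmp6 (ENSMUSG00000039004, chr13:38345107-38500302, plus strand) encodes a ligand of the Bmp5, Bmp6 and Bmp7 subgroup, known for its part in iron homeostasis as a product of liver vessels. It was barely detected in neurons, where every library had 1 to 3 UMIs and at most 0.199 CPM. Mural cells held the most, with 12.5 CPM in stellate, 10.7 in sphenopalatine, 52.2 in pelvic 1, 12.9 in coeliac, 10.7 in lumbar and 29.9 in pelvic 2. All of these lay far above the neurons of the same library. Fibroblasts ranged from 2.37 to 11.3 CPM, endothelial cells from 2.90 to 16.2 CPM, and glia from 0.365 to 1.84 CPM. Mural cells exceeded endothelial cells (log2 difference 1.37 ± 0.37, adjusted p = 0.0042), endothelial cells and fibroblasts did not differ beyond the spread (adjusted p = 0.96), fibroblasts exceeded glia (3.56 ± 0.36, adjusted p = 4.8e-09), and glia exceeded neurons (2.99 ± 0.47, adjusted p = 2.4e-06). As with Bmp4, macrophages had no UMI, which puts pooled mural cells at least 43.0-fold above them.

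Bmp7 (ENSMUSG00000008999, chr2:172868012-172940321, minus strand) encodes a ligand that can signal through Acvr1 as well as Bmpr1a and Bmpr1b and is known for kidney and eye development. In neurons it reached 10.5 CPM in sphenopalatine, 7.24 in pelvic 1 and 5.32 in pelvic 2. The sympathetic neurons together had 7 UMIs among 138016728, with 0.0823 CPM in stellate, 0.0321 in lumbar and none in coeliac. Fibroblasts had it in all libraries, at 14.7 CPM in stellate and 0.626 to 3.31 CPM in the others. Glia ranged from 0.122 to 1.27 CPM, with the 2 pelvic libraries and sphenopalatine above the 3 sympathetic libraries there too. How many of all genes do so in glia was not counted. These glial levels rest on few UMIs, as 3 UMIs equal 0.318 to 0.447 CPM in glia. The 7 neuronal markers summed to 584.5 to 2668 CPM in glia, and the part of neuronal RNA in glial Bmp7 was not tested. Over all libraries neurons and fibroblasts did not differ beyond the spread (adjusted p = 0.37), and glia were below fibroblasts (log2 difference −3.03 ± 0.97, adjusted p = 0.0096).

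**Figure D1:**
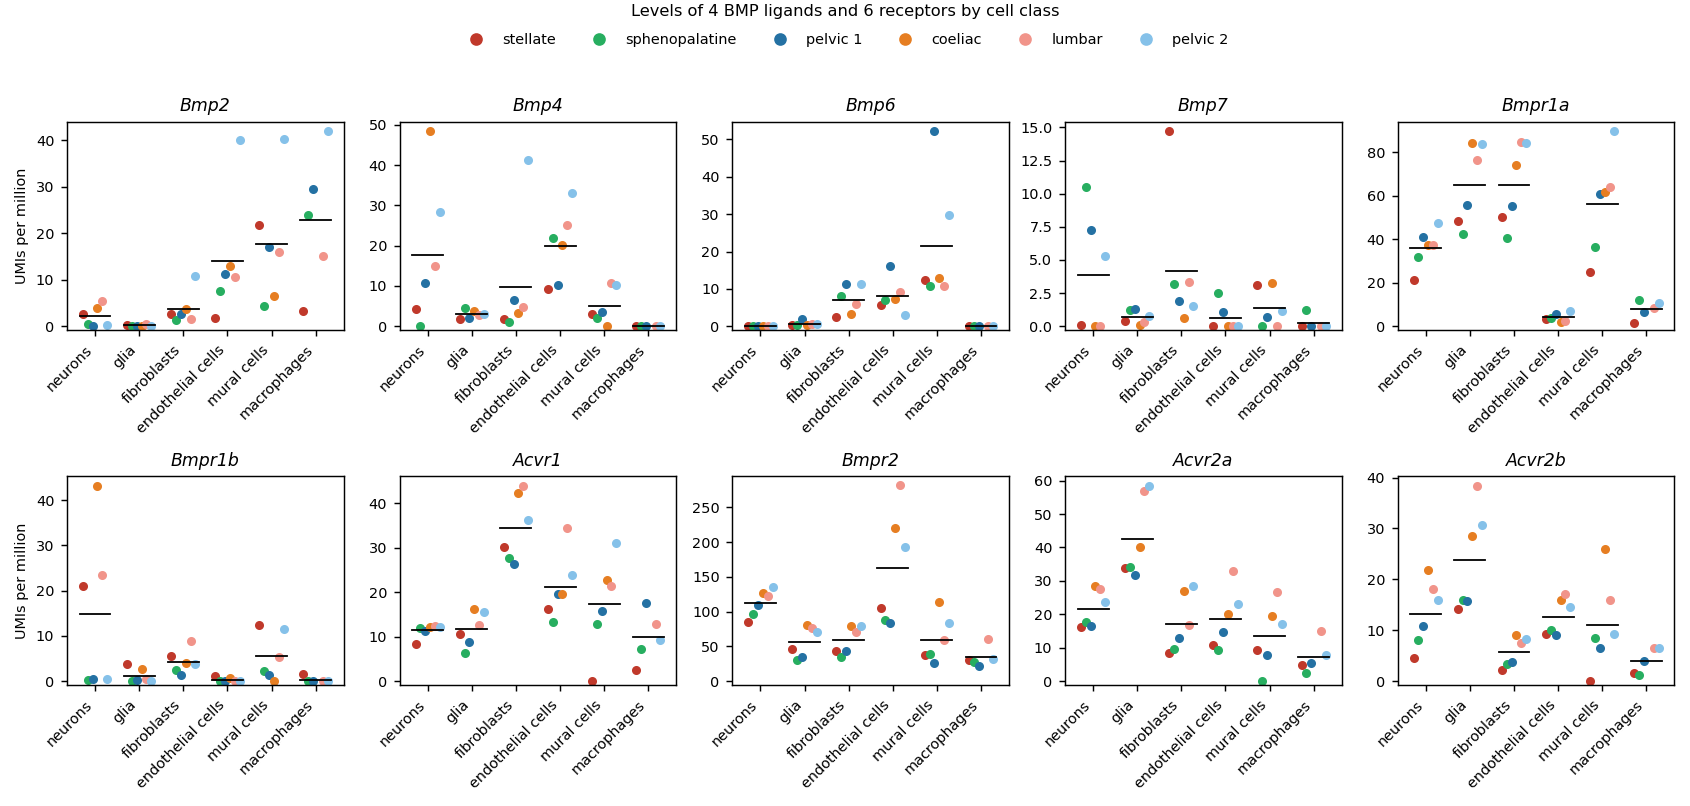
Level of each of the 10 members (CPM, linear axis) in 6 cell classes, with 1 point per library and a bar at the mean of the unlogged values. Bmpr1a was low in endothelial cells and macrophages alone. Bmp6 was at most 0.199 CPM in neurons against 10.7 to 52.2 CPM in mural cells. The neuronal points of Bmpr1b, Bmp2 and Bmp7 fall into sympathetic and other libraries without overlap. The share of all genes that do so was not counted.

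Among the type 1 receptors, Bmpr1a (ENSMUSG00000021796, chr14:34410734-34503341, minus strand) is the most widely used receptor for Bmp2 and Bmp4. Glia held 65.0 ± 18.5 CPM and fibroblasts 64.7 ± 18.7 CPM (SD, n = 6 each), and mural cells 24.9 to 89.6 CPM. Neurons held 21.2 CPM in stellate, 31.8 in sphenopalatine, 41.1 in pelvic 1, 37.2 in coeliac, 37.3 in lumbar and 47.3 in pelvic 2. In every library neurons were below glia, and the difference passed the test (log2 −0.68 ± 0.16, adjusted p = 0.00028). Endothelial cells had only 2.17 to 6.96 CPM, below every other class of the same library except stellate macrophages. Neurons were 3.09 ± 0.22 log2 units above endothelial cells (adjusted p = 2.5e-13), and macrophages, at 1.65 to 12.02 CPM, were also above them (1.06 ± 0.35, adjusted p = 0.012).

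Bmpr1b (ENSMUSG00000052430, chr3:141837136-142169425, minus strand) is a type 1 receptor known for skeletal and ovarian roles. Neurons held 1282 UMIs (21.1 CPM, 95% Poisson interval 20.0 to 22.3) in stellate, 649 (43.1 CPM, 39.8 to 46.5) in coeliac and 1455 (23.4 CPM, 22.2 to 24.6) in lumbar. Against this, there were 9 UMIs (0.143 CPM) in sphenopalatine, 10 (0.353 CPM) in pelvic 1 and 19 (0.543 CPM) in pelvic 2. The intervals cover counting error only, and no sympathetic library came near a pelvic or sphenopalatine one. In fibroblasts the gene was found at 1.30 to 8.92 CPM in all 6 libraries, so that in pelvic and sphenopalatine ganglia it was higher in fibroblasts than in neurons. Mural cells had 0 to 10 UMIs per library and endothelial cells and macrophages at most 2. Over all libraries neurons exceeded glia (log2 difference 3.36 ± 0.74, adjusted p = 0.00016) and endothelial cells (4.80 ± 1.24, adjusted p = 0.00092), but not fibroblasts (adjusted p = 0.75) or mural cells (adjusted p = 0.95).

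In shares of cells, 39.8% of stellate, 67.1% of coeliac and 68.4% of lumbar neurons had a Bmpr1b UMI, against 0.571% in sphenopalatine, 1.30% in pelvic 1 and 5.17% in pelvic 2. After thinning each cell to 2000 UMIs the shares were 4.11%, 5.83% and 5.70% in the sympathetic libraries, 0.127% in sphenopalatine, and 0 in both pelvic libraries. Stellate macrophages had a Bmpr1b UMI in 1.04% of cells at a median depth of 5971.5 UMIs, against 25478 UMIs in stellate neurons, and in 0 of 192 cells after thinning. Other stellate classes had more, with 3.02% of fibroblasts before and 1.45% after thinning, and 4.82% and 3.61% of mural cells (4 and 3 of 83 cells). The thinned share of mural cells is thus close to the 4.11% of stellate neurons. In coeliac and lumbar, thinned fibroblasts stood at 1.42% and 1.75%, below the neurons of the same library.

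Acvr1 (ENSMUSG00000026836, chr2:58388644-58567157, minus strand), a type 1 receptor used by Bmp6 and Bmp7, was highest in fibroblasts, at 30.1 CPM in stellate, 27.7 in sphenopalatine, 26.4 in pelvic 1, 42.3 in coeliac, 43.8 in lumbar and 36.1 in pelvic 2. Every one of these was above all other classes of its library. Fibroblasts exceeded endothelial cells, the next class, by 0.85 ± 0.23 log2 units (adjusted p = 0.0028), and neurons were below fibroblasts (−1.60 ± 0.21, adjusted p = 6.6e-08). Neurons held 8.32 to 12.4 CPM and glia 6.21 to 16.3 CPM, with no difference beyond the spread (adjusted p = 0.47).

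Of the type 2 receptors, Bmpr2 (ENSMUSG00000067336, chr1:59763400-59879014, plus strand), the receptor mutated in heritable pulmonary arterial hypertension, was found in every class. Endothelial cells held 106 CPM in stellate, 88.5 in sphenopalatine, 83.5 in pelvic 1, 221 in coeliac, 282 in lumbar and 194 in pelvic 2. Neurons held 84.97, 96.0, 109, 126, 122 and 136 CPM in the same order of libraries. Endothelial cells were higher than neurons in the 3 libraries of the second round and in stellate, and lower in sphenopalatine and pelvic 1; the difference did not pass the test (log2 0.29 ± 0.16, adjusted p = 0.091). Neurons exceeded glia in all 6 libraries (1.28 ± 0.16, adjusted p = 1.7e-08), and glia, fibroblasts and mural cells could not be ordered among themselves.

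Acvr2a (ENSMUSG00000052155, chr2:48814109-48903269, plus strand) and Acvr2b (ENSMUSG00000061393, chr9:119402118-119434995, plus strand) are type 2 receptors that also serve activins. Both had their highest level in glia. For Acvr2a, glia held 33.7 CPM in stellate, 34.2 in sphenopalatine, 31.7 in pelvic 1, 40.2 in coeliac, 57.0 in lumbar and 58.4 in pelvic 2, above every other class in all 6 libraries. The log2 difference from neurons, the next class, was 0.80 ± 0.18 (adjusted p = 0.00019). For Acvr2b, glia held 14.2, 15.9, 15.7, 28.5, 38.3 and 30.7 CPM in the same order, and the difference from endothelial cells was 0.79 ± 0.19 (adjusted p = 0.00072). Fibroblasts held only 2.14 to 8.97 CPM of Acvr2b, and stood below endothelial cells (log2 difference −1.15 ± 0.21, adjusted p = 2.4e-05). Both genes were higher in every glial library of the second round than in any of the first, and so were the glial levels of Bmpr1a and Bmpr2. How many of all genes do so was not counted, so this only describes the levels. The pelvic ganglion was run in both rounds and differed between them in the same direction, and for the other ganglia, each run once, the round and the ganglion cannot be told apart. Fibroblast markers were also found in the glial class, at 1816 to 2370 CPM in stellate and sphenopalatine and 4009 to 7279 CPM in the others, and their part in the glial levels was not tested.

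Against the mean of the other classes in the same libraries, 7 of the 10 members were called higher in neurons (adjusted p under 0.05), where 42.1% of all 14266 genes tested were, and 2 were called lower, where 33.4% were. In glia 3 were higher and 3 lower (background 30.3% and 22.8%), in fibroblasts 5 and 1 (30.3% and 22.4%), and in endothelial cells 5 and 1 (29.5% and 27.6%). In mural cells 3 were higher and 2 lower (16.6% and 17.2%), and in macrophages 1, Bmp2, was higher and 6 lower (24.0% and 29.5%). Class differences were called in a large part of all genes, so the counts of members are to be read against these shares, and the 7 in neurons rest in part on the low macrophage class. With macrophages left out, a setting chosen after seeing the data, 4 members were called higher in neurons (Bmpr1a, Bmpr1b, Bmpr2, Bmp4), beside 44.4% of all 14089 genes tested there, and 2 lower (Acvr1, Bmp6), beside 34.7%. Bmp6 was not among the lower calls of the fit with all 6 classes because that fit gave it no usable statistic (log2 −4.28, no standard error, adjusted p = 1), as it did for 141 of the 14266 genes at over 2-fold; macrophages hold no UMI of Bmp6. The difference of Bmp4 in neurons went from 2.91 to 1.17 (adjusted p = 0.047) with macrophages left out. The call of Bmp7 in neurons (log2 1.79, adjusted p = 0.040) was also lost without sphenopalatine (adjusted p = 0.16), without pelvic 1 (0.26) and without pelvic 2 (0.27), and that of Bmp2 as lower (−1.31, adjusted p = 0.036) without sphenopalatine (0.19), pelvic 1 (0.16) or pelvic 2 (0.081). The higher call of Bmpr1a in neurons (0.61 ± 0.13) is a mean over logged levels, pulled by endothelial cells and macrophages: on the linear scale neurons averaged 36.0 CPM and the other classes 39.6 CPM. Over all 15 pairs of classes the members differed in 85 of 150 tests (56.7%), near the 55.0% of all 213990 gene and class pairs. Of the 50 pairs that are neighbours in the order of a member, and so the closest by construction, 13 differed.

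Within neurons, the comparison of the pelvic ganglion with the sympathetic ganglia used the 2 pelvic libraries and the stellate, coeliac and lumbar libraries, with round as a term. Of the 9 members with enough counts, 2 were called higher in pelvic neurons, Bmp7 and Bmpr1a, where 10.3% of 15406 genes were, and 2 lower, Bmpr1b and Bmp2, where 8.09% were. The median log2 difference of the 9 was 0.23, beside −0.02 over all genes. The libraries come from different ganglia, each with 1 library apart from the pelvic. These p-values thus measure the spread among libraries, and so among ganglia, that is left after the term for round.

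Bmpr1b was lower in pelvic than in sympathetic neurons, with a log2 difference of −5.89 ± 0.36 (adjusted p = 0.00013). Pooled over libraries, sympathetic neurons had 24.5 CPM against 0.458 CPM in pelvic neurons, a ratio of 53.6, and against 0.143 CPM in sphenopalatine neurons, a ratio of 171. The sphenopalatine library entered no test, being alone of its kind.

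Bmp7 was 6.85 ± 0.42 log2 units higher in pelvic neurons (adjusted p = 0.00013), with 6.18 CPM pooled against 0.0507 CPM in sympathetic neurons, a ratio of 122. Sphenopalatine neurons were 207 times above the sympathetic ones. Bmp2 was lower in pelvic neurons (−3.90 ± 0.36, adjusted p = 0.00059), with 0.253 CPM pooled against 4.00 CPM in sympathetic neurons, a ratio of 15.8. For each of these 3 members the 2 pelvic libraries lay on the same side of all 3 sympathetic ones. The share of all genes that do so was not counted, so this only describes the levels.

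Bmpr1a was 0.60 ± 0.15 log2 units higher in pelvic neurons (adjusted p = 0.034), with both pelvic libraries above the 3 sympathetic libraries, a separation not counted over all genes. This call was lost without stellate (log2 0.40, adjusted p = 0.13) and without pelvic 1 (0.41, adjusted p = 0.15), without the term for round (0.50, adjusted p = 0.42), and with cells thinned to 2000 UMIs (0.67, adjusted p = 0.097). The other tested members did not pass: Bmp4 differed by 0.50 ± 0.50 (adjusted p = 0.57), with pelvic values of 10.7 and 28.2 CPM inside the sympathetic range of 4.20 to 48.4 CPM, and Bmpr2, Acvr1, Acvr2a and Acvr2b differed by −0.14 to 0.36 (adjusted p 0.26 to 0.56).

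**Figure D2:**
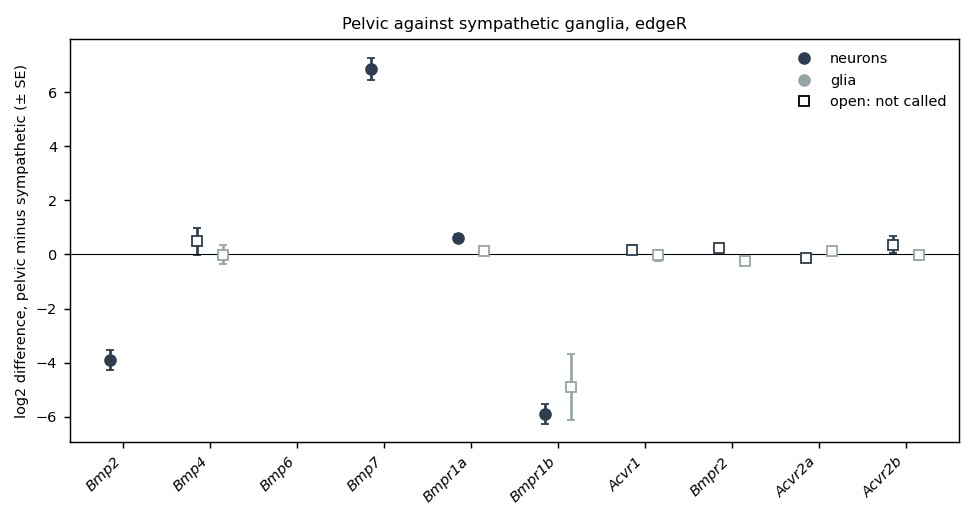
Log2 difference of pelvic minus sympathetic libraries for each tested member, in neurons and in glia, with bars of 1 standard error. In neurons Bmp7 stood at 6.85 and Bmpr1b at −5.89, both called at adjusted p under 0.05 along with Bmp2 and Bmpr1a, and in glia no member was called.

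The neurons captured here were mostly noradrenergic in the sympathetic libraries. In the pelvic libraries they were mostly cholinergic, at 562 of 690 in pelvic 1 and 291 of 329 in pelvic 2. By contrast, the paper's staining of adult male pelvic ganglia found near equal numbers of both. The comparison was therefore repeated within each transmitter class, a step added after seeing the data. Among noradrenergic neurons Bmpr1b was 21.6 CPM in stellate, 43.1 in coeliac and 24.4 in lumbar, and 0.803 in pelvic 1 and 2.08 in pelvic 2. The pelvic noradrenergic neurons were thus lower too (log2 −4.31 ± 0.41, adjusted p = 0.0034), at a pooled ratio of 18.6. Bmp2 was lower there as well (−3.96 ± 0.76, adjusted p = 0.029), and so was Acvr2a (−0.68 ± 0.13, adjusted p = 0.028), while Bmpr1a was not called (0.27 ± 0.11, adjusted p = 0.22). Of the 8 members tested in noradrenergic neurons, 3 were thus called, all lower. Of all 13946 genes tested there, 3.72% were called lower and 3.97% higher.

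Among cholinergic neurons, of which stellate has 43 and lumbar 40, Bmpr1b held 6.55 CPM in stellate and 6.25 in lumbar against 0.257 in pelvic 1 and 0.353 in pelvic 2 (log2 −4.31 ± 0.61, adjusted p = 0.017). Bmp2 differed in the same direction (−4.31 ± 0.74, adjusted p = 0.031), although stellate held 2 UMIs and pelvic 1 also 2. Bmpr1a was not called (0.45 ± 0.21, adjusted p = 0.44). Bmp7 had 389 UMIs in pelvic cholinergic neurons and none in those of stellate and lumbar, which puts the pelvic level at least 12.7-fold higher at a floor of 3 UMIs over the latter (adjusted p = 0.021 in the fit). Of the 9 members tested in cholinergic neurons, 3 were thus called. Of all 13474 genes tested there, 1.62% were called higher and 1.62% lower. Among noradrenergic neurons Bmp7 was too low to be tested, with 1 UMI in each pelvic library (0.201 and 0.259 CPM) and 0 to 0.0851 CPM in the sympathetic libraries.

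Noradrenergic against cholinergic neurons of the same library could be compared in stellate, lumbar and both pelvic libraries. Of 8 members tested, Bmpr1b alone was called, as higher in noradrenergic neurons, where 2.12% of 13385 genes were, and none was called lower (2.79% of genes). The difference was 1.97 ± 0.21 on the log2 scale (adjusted p = 0.0091) and had the same direction in 4 of 4 libraries. It was lost with cells of over 500 genes admitted (adjusted p = 0.13), without doublet removal (0.11) and without pelvic 1 (0.052). The median over the 8 members was −0.15, beside 0.02 over all genes. Bmp6 and Bmp7 had too few counts over these sums to be tested. Bmp7 held 7.14 CPM in pooled pelvic cholinergic neurons, against 0.201 and 0.259 CPM in the noradrenergic neurons of pelvic 1 and pelvic 2.

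**Figure D3:**
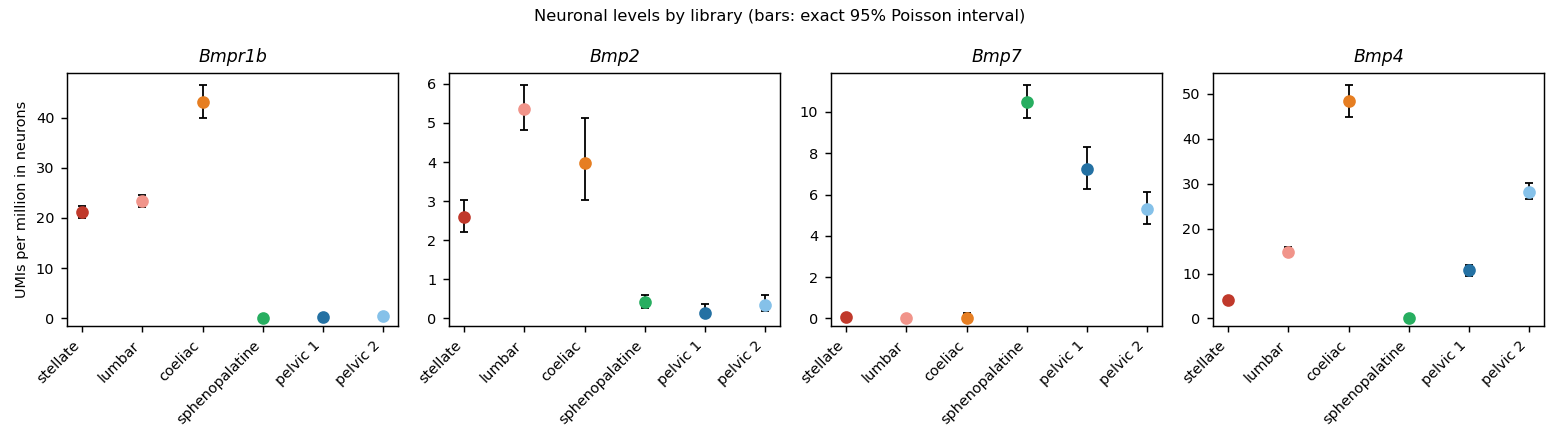
Level of Bmpr1b, Bmp2, Bmp7 and Bmp4 (CPM) in the neurons of each library, with bars of the 95% Poisson interval of the count. Bmpr1b and Bmp2 stood high in stellate, coeliac and lumbar, Bmp7 in sphenopalatine and both pelvic libraries, and Bmp4 was lowest in sphenopalatine neurons, at 0.0638 CPM.

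Pelvic neurons fell into 4 named groups, P1-like to P4-like, after marker genes taken from the study's own division of the pelvic neurons; P3-like is the noradrenergic one. Bmp7 was 10.7 and 6.75 CPM in P1-like, 5.05 and 2.49 in P2-like, 0.201 and 0.259 in P3-like, and 14.8 and 10.1 in P4-like neurons, in pelvic 1 and pelvic 2. Both libraries gave the same order, with P4-like first and P3-like last, the latter resting on 1 UMI in each library. Bmpr1b UMIs in pelvic neurons came only from P1-like (6 and 11) and P3-like (4 and 8), and P2-like and P4-like had none, which puts pooled sympathetic neurons at least 160-fold and 59.6-fold above them. Bmp4 was highest in P2-like neurons of pelvic 2, at 57.0 CPM, but in pelvic 1 P2-like (13.4) and P3-like (13.9) were level. P4-like neurons had the least Bmp4 in both libraries (4.55 and 9.26 CPM). Bmpr1a was highest in P2-like neurons of both libraries (50.9 and 60.2 CPM). The P4-like clusters also carry Fabp7 and Apoe, which glia share, among their leading genes. There are 37 to 252 neurons in each type and library, and no test was made between types.

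Sub-clusters of at least 20 neurons were cut within each library, again without the members. Bmpr1b ranged over them from 1.63 to 29.9 CPM in stellate (13 sub-clusters), from 12.8 to 135 CPM in coeliac (6) and from 1.32 to 58.8 CPM in lumbar (9). It was thus unevenly spread within each sympathetic ganglion. Bmp4 ranged from 0 to 22.5 CPM in stellate, from 0 to 115 CPM in coeliac and from 0 to 52.7 CPM in lumbar. In coeliac the sub-cluster led by Mdk, Sytl4 and Cartpt had the most Bmpr1b (135 CPM) and no Bmp4 UMI, and that led by Htr3a, Myl1 and Itga1 had the least Bmpr1b (12.8 CPM) and the most Bmp4 (115 CPM). Lumbar repeated this: the sub-cluster led by Cntn5, Myl1 and Brinp1 had 1.32 CPM of Bmpr1b and 52.7 CPM of Bmp4, and the one led by Sytl4, Cbln2 and Creb5 had 58.8 and 0.389 CPM.

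Across sub-clusters the Spearman correlation of Bmpr1b with Bmp4 was −0.829 in coeliac (n = 6), −0.883 in lumbar (n = 9) and −0.145 in stellate (n = 13). Sub-clusters of a library share that library and are no replicates. Median UMIs per cell also went with these levels, with correlations of 0.943 in coeliac and 0.417 in lumbar for Bmp4, and of −0.657 and −0.7 for Bmpr1b; the part of depth was not tested. Bmp7 was found in 12 of 12 sphenopalatine sub-clusters, at 2.04 to 26.2 CPM, above the level of 3 UMIs. Of the sympathetic sub-clusters only that of stellate led by Grp, Sytl4 and Cbln2 passed that level, at 2.21 CPM.

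**Figure D4:**
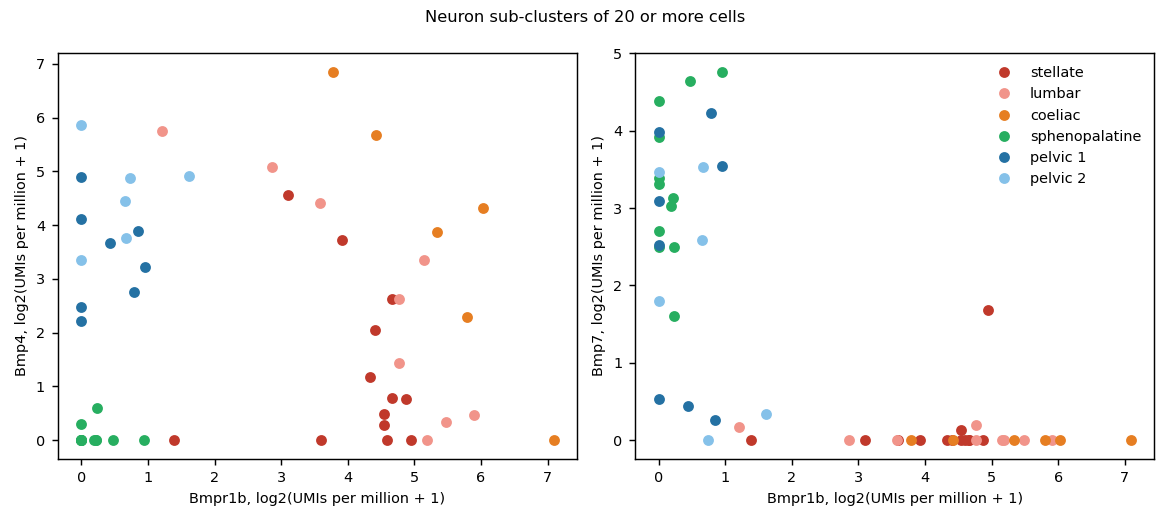
Level of Bmpr1b, Bmp4 and Bmp7 (CPM plus 1, log axis) in neuronal sub-clusters of at least 20 cells, with 1 point per sub-cluster. In coeliac and lumbar the sub-clusters with the most Bmp4 (115 and 52.7 CPM) had the least Bmpr1b (12.8 and 1.32 CPM), and the sub-clusters of sphenopalatine carry Bmp7 throughout.

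In glia the same comparison of pelvic and sympathetic libraries called none of 7 members, where 1.05% of 13211 genes were called higher and 1.58% lower by edgeR. At unadjusted p under 0.05 there were 2034 genes. Bmpr1b in glia was 3.71 CPM in stellate, 2.56 in coeliac and 0.359 in lumbar, and 0.142 in pelvic 1 and 0 in pelvic 2 and sphenopalatine. The log2 difference was −4.90 ± 1.22 (adjusted p = 0.085), and it became a call with DESeq2, without doublet removal and without lumbar. Beside it, the 5 noradrenergic marker genes Th, Dbh, Slc6a2, Slc18a2 and Ddc summed to 12.7 to 888 CPM in glia and 127 to 4769 CPM in neurons. Their glial sum was 18.6% of the neuronal sum in stellate, 5.46% in coeliac and 3.93% in lumbar, while glial Bmpr1b was 17.6%, 5.93% and 1.54% of neuronal Bmpr1b. The part of neuronal RNA in glial Bmpr1b was not tested further. In stellate fibroblasts the markers stood at 11.2% and Bmpr1b at 25.8% of the neuronal level.

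Whether the pelvic against sympathetic difference differed between neurons and glia was tested as an interaction. Bmp7 alone passed, among 318 of 15081 genes: its difference was 5.42 ± 0.82 log2 units larger in neurons than in glia (adjusted p = 0.019). For Bmpr1b the interaction was −1.18 ± 3.02 (adjusted p = 0.93), an error too wide to tell the cell classes apart.

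Of 55 listed further genes of the pathway, 54 were in the files and 37 could be tested across classes. In endothelial cells 20 (54.1%) were higher and 7 (18.9%) lower than the mean of the other classes, beside 29.5% and 27.6% of all genes, with all 4 inhibitors of the signal and 3 of 4 Smad transducers among those higher. Smad1 reached 112 ± 17.6 CPM (SD, n = 6) there, the inhibitory Smad7 101 ± 65.6 CPM, and the target Id1 430 ± 103 CPM. The type 1 receptor Acvrl1, which binds Bmp9 and Bmp10, stood at 118 ± 12.2 CPM in endothelial cells and at 0.236 CPM in neurons, and the co-receptor Eng at 744 ± 175 CPM. Neurons were thus above endothelial cells in Bmpr1a and below them in Acvrl1.

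In neurons 14 of the 37 were higher (37.8%) and 15 lower (40.5%), near the 42.1% and 33.4% of all genes. Smad9 was highest in neurons (16.3 ± 4.56 CPM) and had no UMI in mural cells, and Bmp3, which is known as a BMP antagonist among the ligands, held 74.7 ± 44.4 CPM in neurons. Glia were set off by the antagonist Sostdc1, at 2445 ± 717 CPM, and by the co-receptor Tgfbr3, at 223 ± 113 CPM, with 6 of 10 tested antagonists higher and 1 lower. In all, 37.8% of the 37 were higher in glia and 18.9% lower, beside 30.3% and 22.8% of all genes. In fibroblasts 18 (48.6%) were higher and 6 (16.2%) lower, beside 30.3% and 22.4% of all genes. All 5 tested ligands of the list were higher in fibroblasts, among them Bmp1, a procollagen protease and no true BMP, at 150 ± 29.6 CPM, and so were the antagonists Fstl1 (1106 ± 168 CPM) and Chrdl1 (48.1 ± 15.8 CPM). Mural cells had 15 (40.5%) higher and 8 (21.6%) lower, beside 16.6% and 17.2% of all genes, with the ligand Bmp5 at 41.3 ± 9.77 CPM and the target Id3 at 933 ± 237 CPM. Macrophages had 2 (5.41%) higher and 21 (56.8%) lower, beside 24.0% and 29.5% of all genes.

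**Figure D5:**
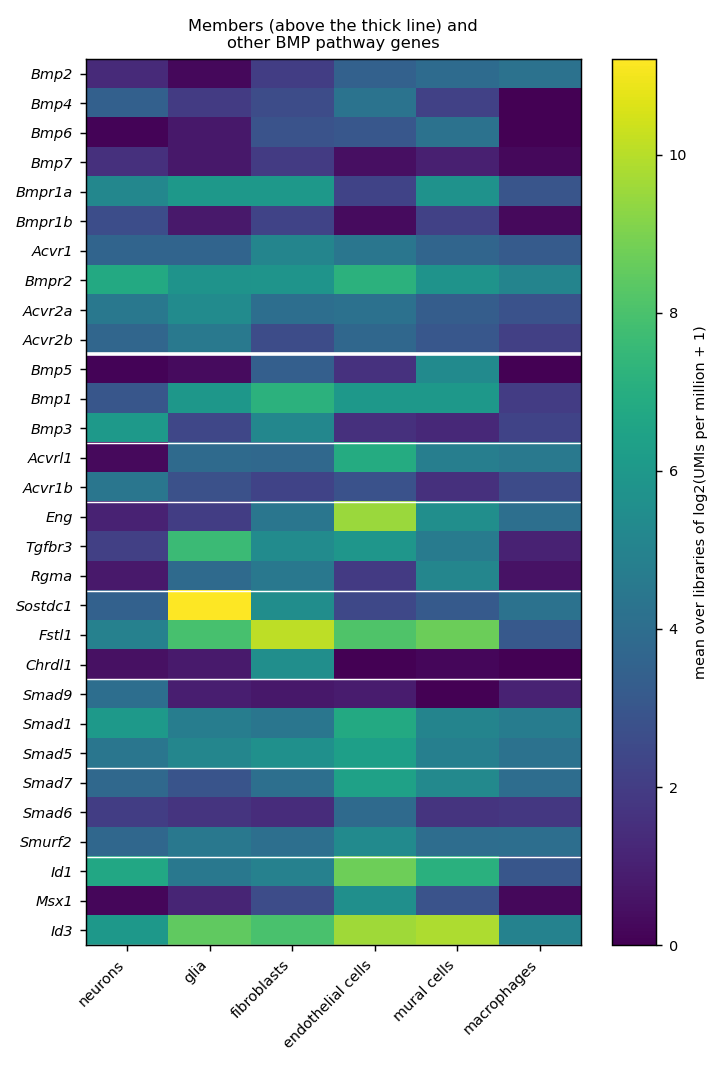
Mean level (log2 of CPM plus 1) over libraries of the 10 members and of the pathway genes with the widest range between classes, up to 3 for each of 7 roles, in 6 cell classes. Acvrl1, Eng and Id1 peak in endothelial cells (118, 744 and 430 CPM), Sostdc1 in glia (2445 CPM), and Smad9 in neurons (16.3 CPM).

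Between pelvic and sympathetic neurons 14 of 41 tested pathway genes (34.1%) were higher in pelvic neurons and 5 (12.2%) lower, beside 10.3% and 8.09% of all genes, with a median log2 difference of 0.32 beside −0.02 over all genes. By role, 2 of the 4 inhibitors of the signal were higher, 3 of 6 tested targets were higher and 1 lower, 4 of 13 tested antagonists were higher and 1 lower, and 2 of 5 tested ligands were higher and 2 lower. The target Id1 held 120 and 192 CPM in pelvic 1 and pelvic 2, 61.0 to 79.8 CPM in the sympathetic libraries and 171 CPM in sphenopalatine (log2 difference 1.23 ± 0.17, adjusted p = 0.0029). Smad6 held 9.82 and 13.4 CPM against 0.906 to 2.56 CPM (2.99 ± 0.29, adjusted p = 0.00075), and Smad7 10.8 and 37.1 CPM against 4.22 to 17.9 CPM (1.28 ± 0.15, adjusted p = 0.0015), the latter with overlapping ranges. The target Id3 did not pass (−0.05 ± 0.25, adjusted p = 0.93). Among the ligands Bmp1 was lower in pelvic neurons (−2.31 ± 0.20, adjusted p = 0.00047) and Bmp3 higher (1.19 ± 0.14, adjusted p = 0.0016). The differences of these pathway genes are given for all neurons together and not within a transmitter class. Pelvic neurons were mostly cholinergic and sympathetic ones mostly noradrenergic, so these differences mix ganglion and transmitter class. In glia 2 of 32 were higher (6.25%) and none lower, beside 1.05% and 1.58% of all genes.

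The genes most like each member over the 35 sums of library and class, by Pearson correlation of log2(CPM + 1), were Igsf1 (r = 0.775), Insrr and Shox2 for Bmpr1b, and Sorcs3 (r = 0.783), Col24a1 and Lynx1 for Bmp7. They were Aoc3 (r = 0.944), Mustn1 and Mn1 for Bmp6, Ehbp1l1 (r = 0.855), Wsb1 and Plk3 for Bmp2, and Dennd5b (r = 0.803), Bag3 and Lifr for Bmp4. For the receptors they were Ndrg2 (r = 0.903) and Armcx3 for Bmpr1a, Mapkbp1 (r = 0.886), Polk and N4bp2 for Acvr1, and Lrrc58 (r = 0.911), Rc3h1 and Cdc42bpb for Bmpr2. Tmem245 (r = 0.942), Msh3 and Mettl4 were most like Acvr2a, and Rfx7 (r = 0.873), Nr2c2 and Msi2 most like Acvr2b. The sums share libraries and depth, and the values are a description.

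No member shares exon sequence with another gene on its own strand. On the other strand, exons overlap Gm17110 at Bmpr1a, Orc4 at Acvr2a, Gm15217 at Bmp4 and Txndc5 at Bmp6. The kit keeps the strand of the RNA.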

How the data were processed

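Single-cell RNA libraries were made by the authors from dissociated ganglia of postnatal day 5 mice with 10x Genomics 3' kits, 6 libraries in all with 2 of the pelvic ganglion. The deposited values are raw UMI counts per gene and droplet, which the authors made with Cell Ranger 6.0.1 (build mm10, per the submitters' processing notes), with no normalization and 0 columns left unused. Kept droplets had more than 1500 but fewer than 11000 detected genes, and mitochondrial genes made up less than 15% of their UMIs, after the study's methods, which left within a few cells of the numbers those methods state. Doublets were removed per library by nearness to simulated doublets (share over 0.5 among 30 neighbours). Cells were clustered per library (Leiden, 2000 variable genes, 30 components) without the members and pathway genes, and classes were named from markers. The study's own clusters were not used here, so names may differ from it. Counts were summed per library and class (at least 20 cells), and levels are UMIs per 1000000 of that sum (CPM). Library totals ran from 39353313 to 113352559 UMIs.

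Sums were tested with edgeR 4.0.16 (TMM, filterByExpr, quasi-likelihood F test) with library as a block between classes and round as a term between ganglia. P-values were adjusted by Benjamini-Hochberg over all genes of a contrast, at a threshold of 0.05. Nothing states that libraries are of separate animals, so p-values measure the spread between these libraries. Fits were tested on simulated data. In the simulation of pelvic against sympathetic neurons, 34% of 2-fold and 94% of 4-fold changes were recovered over 15106 genes. The simulated counts had the same dispersion for every gene and no further differences between ganglia or rounds. These shares therefore need not hold for the real libraries. Alternatives were DESeq2 1.42.0, other filters, no doublet removal, other clusterings, thinning, single rounds and libraries left out in turn.

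All 10 members are named. Of 55 pathway genes, those named are up to 3 per role with the widest range between classes, together with the 3 genes most correlated with each member, of which 1 is not reported here. The members, lists and tests were chosen with earlier results of these data known. Gene positions come from GENCODE M21, where all 10 members were found.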

Additional observations from a re-analysis of the deposited data

Results flagged for a closer look

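Single libraries stood apart from the others of their class in 9 of 58 sets of 5 or 6 libraries, by Dixon's criterion. For normally distributed values chance alone flags about 1 set in 20, or 2.9 of 58. Low counts from different ganglia and rounds need not meet this, so the 9 cannot be read as an excess over chance. Pelvic 2 was the high library for Bmp2 in fibroblasts, with 10.8 CPM against 1.43 to 3.75 CPM, for Bmp2 in endothelial cells, with 40.0 CPM against 1.73 to 12.99 CPM, and for Bmp4 in fibroblasts, with 41.2 CPM against 1.11 to 6.49 CPM. Stellate was high for Bmp7 in fibroblasts, with 14.7 CPM against 0.626 to 3.31 CPM, and low for Acvr1 in neurons, with 8.32 CPM against 11.3 to 12.4 CPM. Pelvic 1 was high for Bmp6 in glia, at 1.84 CPM against 0.365 to 0.744 CPM, and lumbar for Bmpr2 in macrophages, at 60.05 CPM against 21.5 to 31.4 CPM. The other sets rest on 1 or 2 UMIs: Bmpr1b in stellate macrophages (1.65 CPM) and Bmp7 in sphenopalatine macrophages (1.20 CPM), with 0 in the other libraries.

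The pelvic against sympathetic difference of Bmp7 differed between neurons and glia by 5.42 log2 units, as given above with its test.

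Outside the named classes, both pelvic libraries held a cluster rich in Chga and Chgb, which encode proteins of secretory granules, that received no name (142 cells in pelvic 1 and 33 in pelvic 2). In pelvic 1 and pelvic 2 respectively it held Bmpr1a at 19.7 and 71.3 CPM, Bmpr2 at 18.6 and 29.4 CPM, Acvr1 at 10.4 and 15.5 CPM, Acvr2a at 6.22 and 17.1 CPM, Acvr2b at 10.4 and 34.1 CPM, and Bmp7 at 22.8 and 9.30 CPM. These lie above the limit that 3 UMIs set, 3.11 CPM in pelvic 1 and 4.65 CPM in pelvic 2. Bmp7 was above the neurons of the same library in both, on 22 UMIs in pelvic 1 but only 6 in pelvic 2. That difference was not tested. Bmpr1b had 1 UMI in pelvic 1 and 0 in pelvic 2.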

How the results depend on the processing

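Of 715 comparisons of a member's call with an alternative that changed the fit, 633 kept the call, 82 lost it and 0 reversed. The calls of Bmpr1b, Bmp7 and Bmp2 between pelvic and sympathetic neurons held in every alternative in which they were tested. Thinning each cell to 2000 UMIs, which leaves fewer counts and fewer members tested, lowered the number of members called from 9 to 5 in neurons, 6 to 3 in endothelial cells, 5 to 2 in mural cells, 7 to 2 in macrophages, 4 to 1 between pelvic and sympathetic neurons, 1 to 0 between noradrenergic and cholinergic neurons, and from 13 to 5 for neighbouring pairs of classes. It also cut the members tested from 10 to 7 between classes, the genes tested there from 14266 to 9008, and the share of all genes called from 75.6% to 67.8% in neurons, 57.1% to 36.7% in endothelial cells, 33.8% to 23.0% in mural cells, 53.5% to 40.3% in macrophages and 18.4% to 12.7% between pelvic and sympathetic neurons, so the lower counts cannot be read as a result about the members. With the 3 libraries of round 1 alone, 4 members were called in neurons and 6 neighbouring pairs, and with round 2 alone 2 members in mural cells. Of all genes, 68.4% were called in neurons with round 1 alone, and 19.3% in mural cells with round 2 alone. Between noradrenergic and cholinergic neurons no filter gave 2 members, and droplets of over 500 genes or no doublet removal gave 0. The shares of all genes called were 5.41%, 6.21% and 6.5% in that order, beside 4.92% in the main fit. Thinning left 2 members tested there, with 3.01% of all genes called. Between pelvic and sympathetic glia, DESeq2 and no doublet removal each gave 1 member, Bmpr1b. The shares of all genes called were 2.6% and 4.31%, beside 2.63% in the main fit. Leaving out each library in turn gave 3 to 6 members in mural cells (3 without pelvic 1), 0 to 1 between noradrenergic and cholinergic neurons (0 without pelvic 1) and 0 to 1 between pelvic and sympathetic glia (1 without lumbar). Without pelvic 1, 27.4% of all genes were called in mural cells and 0.394% between noradrenergic and cholinergic neurons. Without lumbar, 2.49% were called in glia. Causes other than the fewer samples or counts were not tested. At least 50 cells per class could not be fitted between noradrenergic and cholinergic neurons. The library with the most of a member among neurons was the same for 7 of 10 members after thinning and for 7 of 10 with neurons chosen by marker means. No paired analysis was possible because replicate numbers pair no ganglia with each other, only the pelvic ganglion having more than 1. Comparisons of classes within libraries carry the library as a block in every setting. Depth limits all members in mural cells and macrophages, where no sum holds more than 85 UMIs of a member. Bmp6 in neurons was at most 0.199 CPM, in deeper sums of 15068894 to 62714926 UMIs.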
